A study of Mus musculus with 12 samples.

Results

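The transcriptome of Eomes-positive mesendoderm cells sorted at day 3 of differentiation (Eo+) was compared with that of the undifferentiated embryonic stem cells (ESCs) they came from, gene by gene and pathway by pathway. The loci examined were those of the authors' assembly that carried the name of a reference gene, 38806 of 79655 loci with a position. Of these, 17499 had a mean above 0.1 FPKM (counts per 1000 bases of summed exon length and 1000000 counts of a library) in at least 1 group of cells and were tested. All groups shared a single mouse ESC line of C57BL/6 background in which EGFP was inserted at the start of the endogenous Eomes gene, so the modified allele was carried by the controls too. The ESCs were maintained in LIF and serum on mouse embryonic fibroblast feeder cells and collected at day 0. Eo+ cells and the Eomes-negative cells of the same day (Eo−) came from hanging-drop embryoid bodies and were separated by the EGFP signal, and only live cells were kept. The embryoid bodies were in another medium, with serum, thioglycerol and ascorbic acid, for which the methods list no LIF. Cell state, day, medium and culture form thus differ together between ESCs and Eo+, and their parts cannot be told apart. Poly(A) RNA of 4 libraries a group, numbered 1, 2, 5 and 6, gave 648413022 to 837308168 counts over loci per library. By the study's methods the 12 libraries came from 4 differentiation sets of the line, so the p-values measure the spread between sets of a single line.

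Cells that pass through the primitive streak of the embryo, mesendoderm among them, can take a mesodermal fate, the heart included, or form gut endoderm. On the way they leave an epithelial layer, exchange cadherins, orient and migrate under non-canonical Wnt and guidance cues, and receive Nodal, BMP, Wnt and FGF signals. ESCs, by contrast, divide rapidly with a strongly glycolytic metabolism, a high demand for ribosomes and an open chromatin in which many germline genes are transcribed.

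The labels were checked first. Eomes, which encodes the T-box factor behind the reporter, stood at 37.8, 59.4, 49.9 and 44.1 CPM (counts per 1000000 counts of a library, scaled by TMM) in ESC libraries 1, 2, 5 and 6 and at 458, 666, 463 and 595 CPM in the Eo+ libraries. The groups did not overlap, and all 11 mesendoderm markers were higher in Eo+ while 6 of 7 pluripotency markers were lower. Markers of other cell types were present as well. Fibroblast feeder markers summed to 356, 159, 261 and 138 CPM in ESC libraries 1, 2, 5 and 6, against 45.4 to 87.5 CPM in Eo+ and 35.7 to 46.2 CPM in Eo−. The 4 Y-linked genes Ddx3y, Eif2s3y, Kdm5d and Uty, chosen after their values were seen, summed to 3.26, 1.04, 2.56 and 0.851 CPM in the same order of ESC libraries and to 0 to 0.00646 CPM in Eo+, so that both sums ranked the ESC libraries alike, in the order 1, 5, 2 and 6. Of all named loci lower in Eo+ by the test given below, 6.27% had that order in ESCs. In Eo+, markers of visceral endoderm summed to 97, 11.7, 53.4 and 25 CPM in libraries 1, 2, 5 and 6 and markers of blood and endothelial precursors to 571, 339.9, 144 and 533 CPM, against 5.54 to 10.1 and 13.1 to 23.9 CPM in ESCs. Kdr, described below, is among the blood and endothelial precursor markers. The immediate-early genes that dissociation and sorting induce summed to 1122 to 1332 CPM in ESCs and 544 to 635 CPM in Eo+. In such bulk samples, fewer cells of a type and less RNA per cell cannot be told apart.

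A locus was called when its adjusted p (limma, Benjamini-Hochberg over all loci tested) was at most 0.05. By that rule 65.8% of the named loci were called between Eo+ and ESC, 35.3% higher and 30.5% lower in Eo+, with a median log2 fold change of 0.04 over all named loci tested. Loci that were called and whose Eo+ and ESC libraries did not overlap made up 57.9%. For Eo+ against Eo− the shares were 42.4% called, 23.3% higher and 19.1% lower, with a median of 0.01. Counts of list members are to be read against these shares. All fold changes are log2 differences in CPM with ESC, or where stated Eo−, as the reference, so positive values are higher in Eo+. Both comparisons use the same 4 Eo+ libraries.

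**Figure D1:**
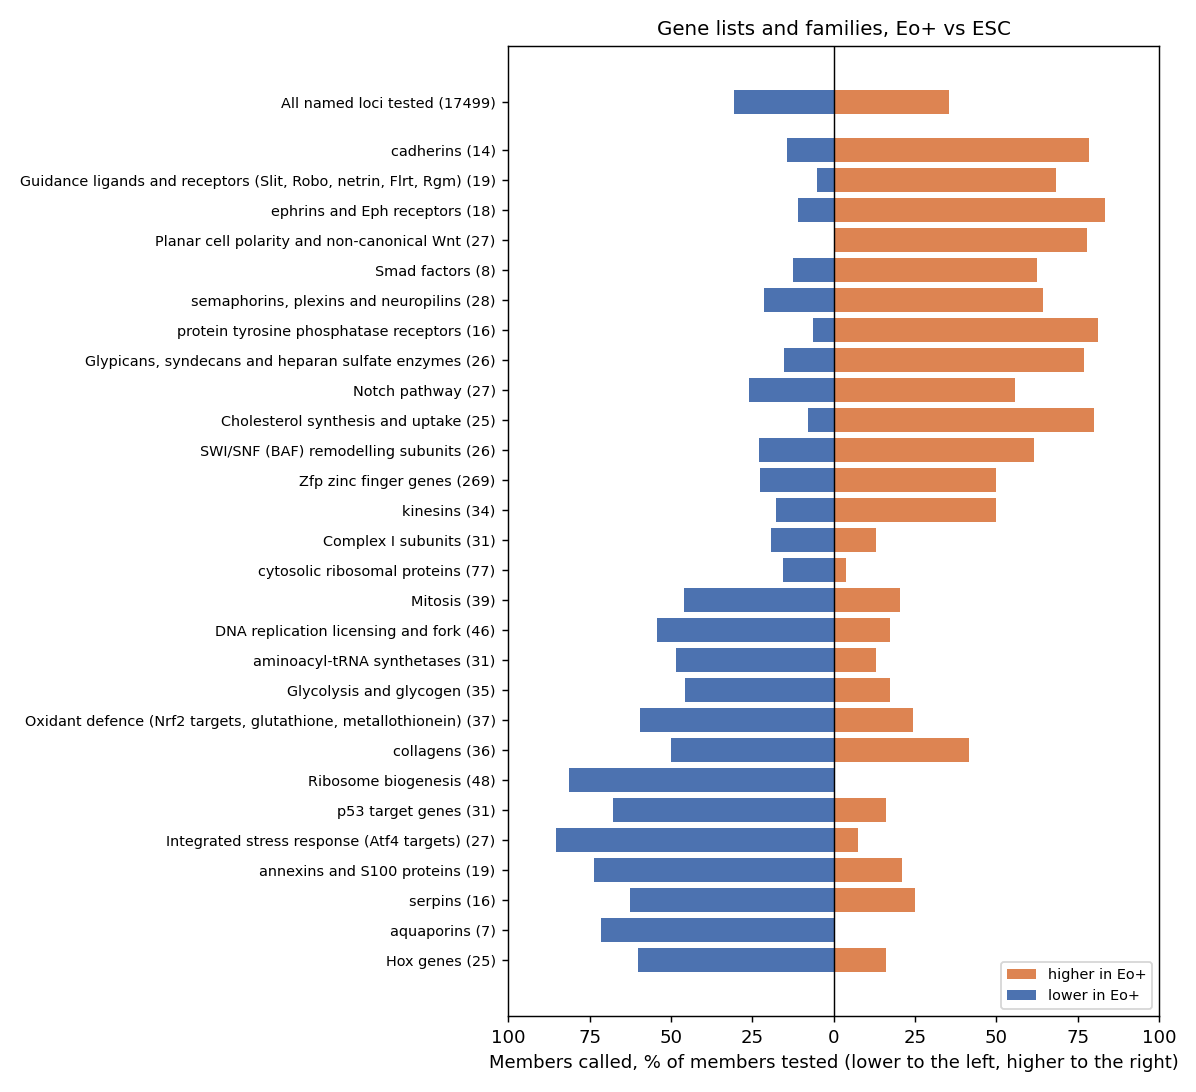
Share of tested members called higher (orange, to the right) or lower (blue, to the left) in Eo+ than in ESC, in percent, for 28 gene lists and families ordered by their median log2 fold change, with the number of members tested in brackets and all 17499 named loci at the top. Ephrins and Eph receptors, receptor tyrosine phosphatases and cholesterol genes reach furthest to the right, and Atf4 targets and ribosome biogenesis furthest to the left.

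Surface, junction and chromatin proteins were among the genes with the largest gains of RNA in Eo+ cells. The largest gain in CPM of any named locus was that of Emb, which encodes embigin, a membrane glycoprotein that escorts lactate transporters to the cell surface. Emb (ENSMUSG00000021728, chr13:117218332-117284987, mm10, plus strand) stood at 215, 188, 263 and 290.5 CPM in ESC libraries 1, 2, 5 and 6 and at 1628, 1563, 1967 and 1544 CPM in the Eo+ libraries, a log2 fold change of 2.82 ± 0.12 (SE, adjusted p = 3.6e-10). Slc16a1, one such transporter gene, rose from 216 ± 14.3 to 765 ± 229.9 CPM (mean ± SD, n = 4 each, log2 fold change 1.77 ± 0.18, adjusted p = 8.7e-07) and Ldha, the lactate dehydrogenase subunit that favours lactate formation, from 1925 ± 359 to 2794 ± 375 CPM (0.55 ± 0.13, adjusted p = 0.0016). Both of these rises were also without overlap between the libraries. Emb and Slc16a1 were higher than in Eo− as well, by 1.68 ± 0.11 and 1.51 ± 0.18 on the log2 scale (adjusted p = 1.9e-07 and 1.7e-05), whereas Ldha was not called against Eo− (0.20 ± 0.13, adjusted p = 0.21).

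Amot encodes angiomotin, a scaffold that binds Yap and tight junction proteins. Amot (ENSMUSG00000041688, chrX:145446238-145506007, minus strand) measured 28.1, 17.4, 43.9 and 15.2 CPM in the ESC libraries, a mean of 131 CPM in Eo−, and 1283, 616, 1130.4 and 854 CPM in the Eo+ libraries. All Eo+ libraries stood far above all ESC libraries, at a log2 fold change of 5.27 ± 0.39 (adjusted p = 4.9e-08), and above Eo− at 2.96 ± 0.32 (adjusted p = 8.9e-06). The chromatin protein Hmga2, a target of let-7 microRNAs, rose from 38.3 ± 19.3 to 536 ± 109 CPM (3.92 ± 0.32, adjusted p = 1.1e-07), and Cyp26a1, which degrades retinoic acid, from 9.4 ± 6.66 to 438 ± 83 CPM (5.79 ± 0.39, adjusted p = 2.1e-08). The retinoic acid receptor Rarg moved the other way, with 150.3 ± 24.6 CPM in ESCs and 41.8 ± 5.13 CPM in Eo+ (-1.84 ± 0.12, adjusted p = 1.9e-08). Among imprinted genes of the same group of gains, Peg3 rose from 76.2 ± 14.3 to 522 ± 70.8 CPM (2.78 ± 0.21). The growth factor gene Igf2 varied widely among the Eo+ libraries, at 1185, 226, 369 and 501 CPM in libraries 1, 2, 5 and 6 against 46, 43.6, 73.9 and 22 CPM in ESCs (3.46 ± 0.64, adjusted p = 0.00026). Eo+ library 1, the highest in Igf2, also held the largest Eo+ sums of visceral endoderm, feeder, trophoblast and blood and endothelial precursor markers. The part of any of these in the Igf2 value was not tested.

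On the losing side, the threonine dehydrogenase gene Tdh fell to a small remainder of its ESC level. Tdh (ENSMUSG00000021953, chr14:63453684-63509323, minus strand) feeds threonine carbon into one-carbon metabolism in mouse ESCs. It measured 618, 710.5, 532 and 542 CPM in ESC libraries 1, 2, 5 and 6, a mean of 100.5 CPM in Eo−, and 4.64, 3.82, 10.6 and 4.9 CPM in the Eo+ libraries (-6.76 ± 0.23, adjusted p = 8.8e-11). From Eo− to Eo+ alone the log2 fold change was -4.19 ± 0.24 (adjusted p = 7.4e-08), and the 3 groups did not overlap. The ubiquitin ligase gene Mkrn1 fell from 729 ± 114 to 98.8 ± 31.6 CPM (-2.92 ± 0.17) and L1td1, a domesticated retroelement gene, from 729 ± 40.7 to 139.5 ± 44.3 CPM (-2.43 ± 0.14). Trim28, the corepressor that silences retroelements, and the chaperone Hsp90aa1 were among the 15 largest losses in CPM and stayed abundant, going from 2549 ± 161 to 1221 ± 143 CPM (-1.07 ± 0.09) and from 3102 ± 352 to 1500.1 ± 119 CPM (-1.04 ± 0.08).

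**Figure D2:**
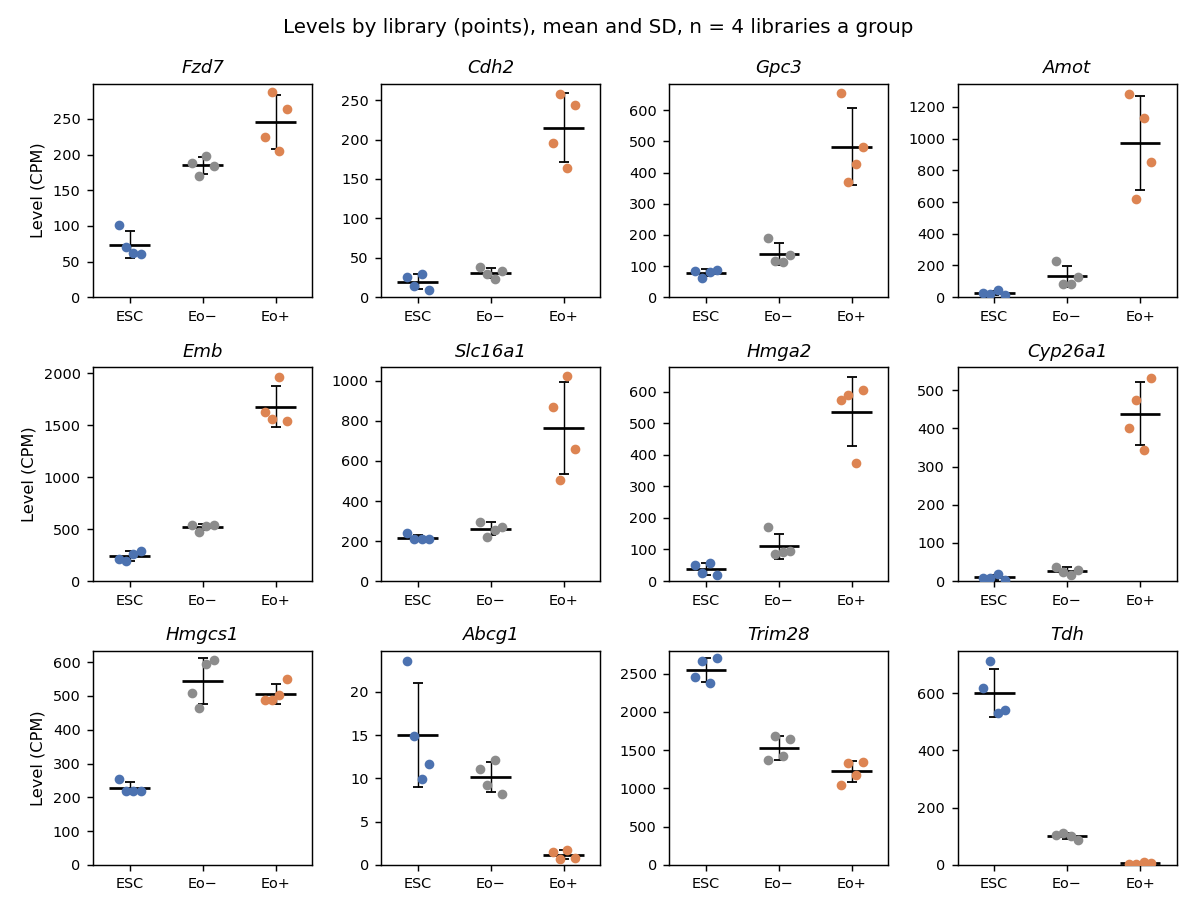
Level in CPM (vertical axis, linear from 0) of 12 genes in each of the 4 ESC, 4 Eo− and 4 Eo+ libraries (points), with the mean (bar) and SD (whiskers). Amot, Emb, Cdh2, Gpc3 and Cyp26a1 stand highest in Eo+, Fzd7 and Hmgcs1 stand high in both day 3 groups, and Tdh falls in steps from 601 CPM in ESCs to 100.5 in Eo− and 6 in Eo+.

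Cell-surface systems that orient and guide cells rose as groups. Of 27 genes of planar cell polarity and non-canonical Wnt signalling, 21 were higher in Eo+, 0 lower and 6 not called, with a median log2 fold change of 1.14. The ligand gene Wnt5a measured 9.85, 5.9, 12 and 2.17 CPM in the ESC libraries and 81.5, 94.6, 31.2 and 103 CPM in the Eo+ libraries (3.46 ± 0.57, adjusted p = 9.7e-05). The ESC libraries with most Wnt5a, 1 and 5, were also those with most feeder markers, and Eo+ library 5 was the lowest of its group, yet the groups did not overlap. Wnt5b and Wnt11, the other non-canonical ligands, rose by 1.90 ± 0.28 and 1.73 ± 0.24 (adjusted p = 3.8e-05 and 2.3e-05).

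Among the receptors of this list, Fzd7 rose from 73.5 ± 19.1 to 245 ± 37.6 CPM (1.75 ± 0.15, adjusted p = 1.5e-07) and Fzd2 from 27.4 ± 5.02 to 96.1 ± 17.6 CPM (1.81 ± 0.17, adjusted p = 4.6e-07). Ptk7, a co-receptor that was the most abundant member per length in ESCs at 35 FPKM, rose to 57.1 FPKM (0.66 ± 0.14, adjusted p = 0.00068). The core polarity genes Vangl2 and Prickle1, which build the membrane complexes that set the axis of a cell, rose by 1.14 ± 0.08 and 1.19 ± 0.12. The cytoplasmic effectors Daam2, a formin, and Dact1, a Dishevelled partner, rose by 5.16 ± 0.43 and 2.28 ± 0.22, in Daam2 from 0.322 ± 0.105 to 11.8 ± 4.57 CPM. Part of the list was not higher in Eo+ than in Eo−. Against Eo−, 13 members were higher and 3 lower with a median of 0.33, and Vangl2 stood at 82.5 CPM in Eo− (0.04 ± 0.08, adjusted p = 0.72) and Fzd2 at 88.8 CPM (0.10 ± 0.15, adjusted p = 0.6). Wnt5a, Daam2 and Dact1 were higher in Eo+ than in Eo− by 2.51 ± 0.50, 2.92 ± 0.34 and 1.88 ± 0.21 (adjusted p = 0.0011, 1.8e-05 and 1.3e-05).

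The guidance families, best known from axon pathfinding, moved in the same direction. Of 18 ephrins and Eph receptors tested, 15 were higher and 2 lower (median 1.40, with 4 of 22 under the filter on low values). Of 28 semaphorins, plexins and neuropilins, 18 were higher and 6 lower (median 1.03), and of 19 Slit, Robo, netrin, Flrt and Rgm genes 13 were higher and 1 lower (median 1.44). Against Eo−, 8 ephrins and Eph receptors were higher and 1 lower (median 0.35). For the semaphorin families 10 were higher and 6 lower than in Eo− (median 0.17), and for the Slit to Rgm list 11 and 2 (median 0.99). The ephrin ligand genes Efna5 and Efna3 rose from 4.76 to 24.6 CPM (2.43 ± 0.19) and from 13.4 to 56.7 CPM (2.02 ± 0.30). Of the receptors, Epha1 rose from 45.5 ± 12.5 to 179 ± 45.4 CPM (1.98 ± 0.23) and Epha2, the most abundant receptor of the family per length in ESCs at 42.9 FPKM, fell to 24.8 FPKM (-0.87 ± 0.18, adjusted p = 0.0006). Epha1 stood at 184 CPM in Eo− and was not called against it (-0.06 ± 0.21, adjusted p = 0.85).

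The transmembrane semaphorin gene Sema6d showed the largest change of these families, with 0.882, 0.449, 1.16 and 0.364 CPM in the ESC libraries and 38.8, 49.8, 38.1 and 41.8 CPM in the Eo+ libraries (6.02 ± 0.33, adjusted p = 3.6e-09). The Eo+ libraries lay close together and far above every ESC library, and Eo− held 3.31 ± 1.62 CPM. Plexin receptors rose beside it, Plxna2 from 5.06 ± 1.46 to 89.8 ± 25.8 CPM (4.13 ± 0.30) and Plxna4 from 0.574 ± 0.101 to 9.96 ± 3.31 CPM (4.05 ± 0.34). Both were also higher than in Eo−, by 3.08 ± 0.26 and 5.02 ± 0.37 (adjusted p = 1.3e-06 and 5.3e-07). Among secreted semaphorins, Sema3f rose by 3.51 ± 0.16 while Sema3c fell by 2.64 ± 0.30. The repellent gene Slit1 rose from 0.953 ± 0.246 to 15.5 ± 4.1 CPM (4.01 ± 0.24) and the Robo family gene Robo3 from 0.646 ± 0.141 to 9.88 ± 2.28 CPM (3.92 ± 0.23).

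Adhesion molecules and the sugar chains that hold growth factors followed. Of 14 cadherins tested, out of 22 listed, 11 were higher and 2 lower (median 2.55). Higher too were 6 of 7 non-clustered protocadherins (median 2.87) and 13 of 16 receptor tyrosine phosphatases (median 0.79, 1 lower, or 2 without ESC library 5). Against Eo−, 6 cadherins were higher and 4 lower (median 0.15), 5 and 1 of these protocadherins (median 1.77) and 8 and 2 of the phosphatases (median 0.53). Cdh2, the mesenchymal N-cadherin gene, measured 25.4, 13.6, 29.2 and 9.37 CPM in the ESC libraries and 195, 257, 164 and 244 CPM in the Eo+ libraries (3.57 ± 0.27, adjusted p = 7.3e-08). Cdh11, an osteoblast and mesenchymal cadherin gene, measured 10.3, 2.66, 8.03 and 2.54 and 125, 156, 52.7 and 130.2 CPM (4.44 ± 0.50, adjusted p = 2.5e-06). ESC libraries 1 and 5 were the highest of their group for both genes, as for the feeder markers, and no ESC library reached the Eo+ range. Cdh1, the epithelial E-cadherin gene, was not called, with 334, 364, 338 and 390.3 CPM in ESCs and 280.3, 247, 487 and 258 CPM in Eo+ (-0.22 ± 0.16, adjusted p = 0.25). Eo+ library 5 stood apart from the other 3 in Cdh1, and without it the gene was called lower (log2 fold change -0.43). Against Eo−, whose mean was 583 CPM, Cdh1 was lower (-0.93 ± 0.16, adjusted p = 0.00033).

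Heparan sulfate proteoglycans carry Wnt, FGF and BMP ligands at the cell surface. Of 26 glypicans, syndecans and heparan sulfate enzymes tested, 20 were higher and 4 lower (median 0.77), and against Eo− 18 were higher and 2 lower. The core protein gene Gpc3 measured 84.9, 63.1, 79.5 and 86.9 CPM in the ESC libraries and 656, 371, 427 and 482 CPM in the Eo+ libraries (2.60 ± 0.19, adjusted p = 4.4e-08). Gpc4 and Gpc6 rose by 1.13 ± 0.20 and 3.14 ± 0.19, and the syndecan gene Sdc4 fell from 40.8 ± 10.5 to 17.4 ± 3.36 CPM (-1.22 ± 0.18). Sdc4 ranked the ESC libraries as the feeder markers did, whose part in its fall was not tested. The sulfotransferases moved apart. Hs3st3b1, which adds the rare 3-O-sulfate, rose from 5.44 ± 1.38 to 67.9 ± 9.36 CPM (3.66 ± 0.25) and stood at 5.26 CPM in Eo−, while the 6-O-sulfotransferase gene Hs6st1 fell from 64.8 ± 9.69 to 25.9 ± 3.64 CPM (-1.32 ± 0.12).

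In the PDGF axis the receptor and its ligands moved in opposite directions. The receptor gene Pdgfra rose from 3.43, 1.67, 1.75 and 1.98 CPM in the ESC libraries to 94.2, 125, 45.6 and 113 CPM in the Eo+ libraries (5.38 ± 0.46, adjusted p = 1.8e-07), although its locus in the assembly also held a small or clone-named gene model. Its ligand genes Pdgfa and Pdgfc fell, from 46.8 ± 11.7 to 14.8 ± 1.7 CPM (-1.64 ± 0.20) and from 29.6 ± 5.57 to 1.96 ± 0.676 CPM (-3.96 ± 0.21). The VEGF receptor genes Kdr and Flt1 both rose, Kdr to 299, 174, 74 and 274 CPM in Eo+ libraries 1, 2, 5 and 6 from 2.52 ± 1.09 CPM (6.25 ± 0.79, adjusted p = 8.5e-06) and Flt1 from 6.13 ± 2.24 to 106 ± 14.4 CPM (4.16 ± 0.25, adjusted p = 8e-09). Eo+ library 5 was the lowest in Kdr. The blood and endothelial precursor markers, of which 7 of 10 were higher in Eo+, include Kdr itself, so their sum is no separate measure for that gene. The part of such cells in the Kdr and Flt1 values was not tested. The GDNF co-receptor genes exchanged places, Gfra1 falling from 10.7 ± 2.56 to 0.997 ± 0.374 CPM (-3.45 ± 0.25) and Gfra2 rising from 0.887 ± 0.345 to 19.7 ± 7.21 CPM (4.47 ± 0.38). Over all 37 growth factor receptors and ligands tested, 16 were higher and 8 lower (median 0.21), beside 35.3% and 30.5% of all named loci.

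The intracellular Smads, which carry Nodal and BMP signals to the nucleus, were 5 higher and 1 lower of 8 (median 1.09). Smad1, a BMP effector, measured 13.3, 13.1, 14.9 and 11.7 CPM in the ESC libraries and 99.5, 118, 73.2 and 120.0 CPM in the Eo+ libraries (2.93 ± 0.17, adjusted p = 4.8e-09), and the Nodal effector Smad3 rose by 1.39 ± 0.09 (adjusted p = 1.6e-08). The inhibitory Smads diverged, since Smad6 rose from 4.83 ± 0.29 to 29.2 ± 11.1 CPM (2.52 ± 0.31) and Smad7 fell from 54.9 ± 5.35 to 27.7 ± 4.59 CPM (adjusted p = 2.9e-06). In the Notch pathway 15 of 27 members were higher and 7 lower. The inhibitory ligand gene Dll3, the target genes Nrarp and Hes1 and the coactivator Maml3 rose by 3.04 ± 0.30, 2.10 ± 0.22, 1.33 ± 0.15 and 3.47 ± 0.23, while the activating ligand gene Jag2 and Rbpj, the DNA-binding subunit of the pathway, fell (-2.07 ± 0.17 and -1.60 ± 0.08). Rbpj was tightly grouped, at 93.7, 82.7, 87.2 and 102 CPM in the ESC libraries and 29.8, 29.4, 31.7 and 29.4 CPM in the Eo+ libraries. Among 23 Hippo genes, 11 were higher and 7 lower. The DNA-binding factor gene Tead2 rose from 145 ± 7.6 to 459.7 ± 45.5 CPM (1.66 ± 0.08), and the Yap target gene Ctgf fell from 120.0 ± 30.4 to 16.4 ± 4.31 CPM (-2.89 ± 0.23), as did the upstream regulator Ajuba (-1.38 ± 0.11). Ctgf is also made by fibroblasts, and the part of the feeder markers, higher in the ESC libraries as given above, was not tested.

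Genes of cholesterol synthesis rose together. Of 25 genes of cholesterol synthesis, uptake and efflux, 20 were higher in Eo+, 2 lower and 3 not called, with a median of 0.61. Sterol enzymes are regulated together by the factor Srebp2, which binds sterol elements in their promoters when membrane sterol is low. The promoter of Hmgcs1, the HMG-CoA synthase gene, is printed here because it was the single promoter of the 13 higher members with a RefSeq entry in which the sterol element TCACNCCAC was found, on either strand. The window runs from 250 bases before to 50 bases after the start of transcription (GRCm38.p6, chr13:119690101-119690400, plus strand, RefSeq), and capitals mark the match, which begins at position −137.
Hmgcs1: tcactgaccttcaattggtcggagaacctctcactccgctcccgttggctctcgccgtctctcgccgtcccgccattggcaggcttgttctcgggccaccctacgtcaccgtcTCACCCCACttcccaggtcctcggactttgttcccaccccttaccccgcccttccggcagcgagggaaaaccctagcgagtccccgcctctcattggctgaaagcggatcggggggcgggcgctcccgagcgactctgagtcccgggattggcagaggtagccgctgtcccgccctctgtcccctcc
The element was found in 1.22% of 27025 mouse promoters of the same length. Its letters were not in the other windows, which says nothing of the factor.

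Hmgcs1 measured 255, 219, 219 and 219 CPM in the ESC libraries and 487, 488, 502 and 549 CPM in the Eo+ libraries (1.15 ± 0.09, adjusted p = 7.1e-08). All Eo+ libraries were above all ESC libraries, and Eo− stood at 544 ± 68.2 CPM (-0.10 ± 0.08 against Eo−, adjusted p = 0.39). Downstream of it, the lanosterol demethylase Cyp51 rose by 1.15 ± 0.10 (adjusted p = 2.8e-07). The intracellular sterol carrier Stard4 rose by 1.38 ± 0.10 (adjusted p = 5.3e-08). Of the not called members, the squalene synthase gene Fdft1 stood at 140.5 ± 20.1 CPM in ESCs and 133 ± 6.92 CPM in Eo+ (-0.07 ± 0.10). Insig1, which retains Srebp in the endoplasmic reticulum, was not called either (-0.09 ± 0.15). Both members that fell encode efflux pumps, Abca1 from 9.9, 5.97, 7.14 and 5.26 CPM in the ESC libraries to 0.556, 0.197, 0.365 and 0.124 CPM in the Eo+ libraries (-4.67 ± 0.48, adjusted p = 1e-06) and Abcg1 from 15 ± 6.04 to 1.19 ± 0.523 CPM (-3.70 ± 0.35, adjusted p = 5.6e-07). Abca1 stood highest in ESC libraries 1 and 5 and lowest in 6, the order of the feeder markers, and their part in its fall was not tested. The efflux genes were lower than in Eo− too (-2.27 ± 0.52 and -3.19 ± 0.36), whereas over the list Eo+ was higher than Eo− for 4 members and lower for 7 (median -0.10).

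**Figure D3:**
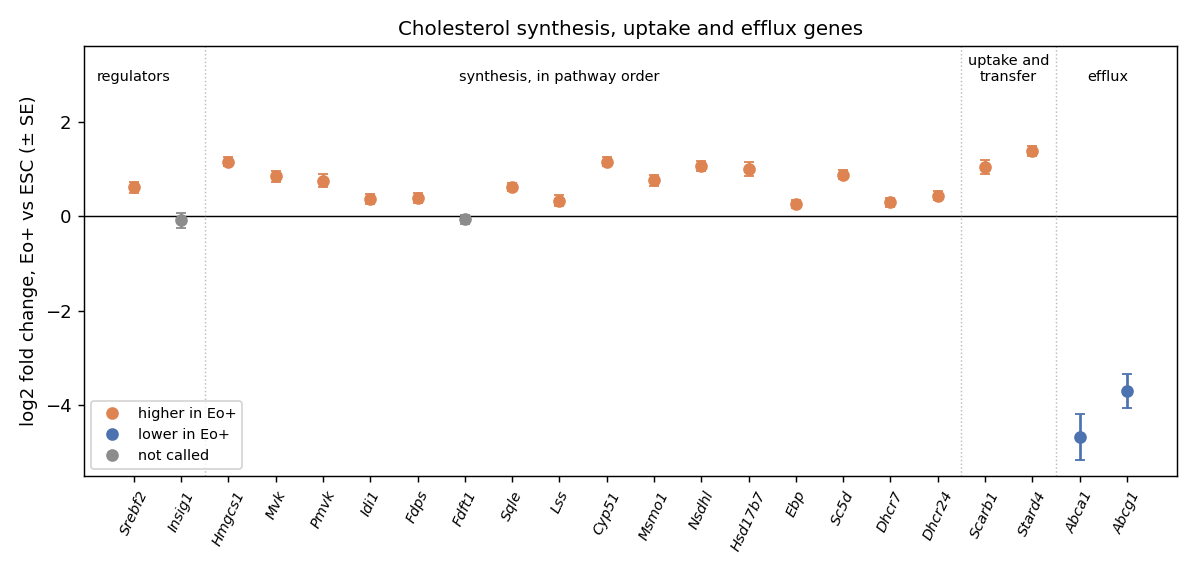
Log2 fold change of Eo+ over ESC (vertical axis, ± SE) for cholesterol genes, in the order regulators, synthesis enzymes along the pathway, uptake and transfer, and efflux. Nearly all synthesis enzymes lie above 0 (orange, called higher), Fdft1 and Insig1 are grey (not called), and Abca1 and Abcg1 lie far below 0 (blue, called lower).

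In fatty acid and phospholipid synthesis, 13 of 28 members were higher and 4 lower (median 0.13). The members that rose most make unsaturated or elongated fatty acids. The desaturase genes Scd1 and Fads2 rose from 73.4 ± 12.7 to 180.5 ± 14.8 CPM (1.31 ± 0.11) and from 96.9 ± 15.7 to 222 ± 11.1 CPM (1.21 ± 0.10), and the elongase gene Elovl2 rose by 1.37 ± 0.20. Against Eo−, Scd1 and Elovl2 were not called (0.04 ± 0.10 and 0.25 ± 0.18) and Fads2 was lower (-0.36 ± 0.10, adjusted p = 0.0084).

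Of the genes of energy metabolism, glycolytic members moved in both directions. Of 35 glycolysis and glycogen genes, 6 were higher and 16 lower (median -0.28). Pfkp, a phosphofructokinase gene, measured 167, 234, 109 and 225 CPM in the ESC libraries and 34.3, 23.9, 25.1 and 23.1 CPM in the Eo+ libraries (-2.73 ± 0.25, adjusted p = 4.1e-07). The pyruvate dehydrogenase kinase gene Pdk1 fell from 159 ± 26.5 to 29.7 ± 15.1 CPM (-2.52 ± 0.24) and stood at 175 ± 24.5 CPM in Eo− (-2.66 ± 0.24 against Eo−, adjusted p = 2.3e-06). Gapdh, the most abundant member per length at 1608 FPKM in ESCs, fell to 1267 FPKM (-0.37 ± 0.12, adjusted p = 0.012) with overlapping libraries. The glycogen phosphorylase gene Pygl rose from 1.36 ± 0.469 to 13.6 ± 2.48 CPM (3.38 ± 0.23). Few subunits of respiratory Complex I were called. Of 31, 4 were higher, 6 lower and 21 not called, with a median of 0.01.

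Oxidant defence genes moved mostly downwards, with 22 of 37 lower and 9 higher (median -0.37). The quinone reductase gene Nqo1, a classical Nrf2 target, measured 39.3, 28.4, 32.6 and 20.5 CPM in the ESC libraries and 2.26, 3.42, 3.73 and 3.24 CPM in the Eo+ libraries (-3.26 ± 0.24, adjusted p = 4.3e-08). The glutathione transferase gene Gsta4 fell from 398 ± 14.3 to 93 ± 13.7 CPM (-2.11 ± 0.10) and the metal-binding metallothionein gene Mt2 from 302 ± 79.7 to 50.4 ± 25 CPM (-2.67 ± 0.27). In ESCs both Nqo1 and Gsta4 followed the library order of the feeder markers, whose part in these falls was not tested. Mt2 was still at 290.3 ± 50.6 CPM in Eo−, so that its fall lay between the 2 day 3 groups (-2.62 ± 0.27, adjusted p = 6.2e-06). The secreted peroxidase gene Gpx3 rose by 1.46 ± 0.15.

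The machinery that builds ribosomes fell, while most genes of the ribosomal proteins themselves were not called. Of 48 ribosome biogenesis genes, 39 were lower in Eo+, 0 higher (1 without ESC library 5 or 6) and 9 not called (median -0.45), against 30.5% lower and a median of 0.04 over all named loci. The falls were small and tightly measured. Rrn3, which brings RNA polymerase I to the ribosomal RNA genes, measured 325, 269.6, 306 and 299.7 CPM in the ESC libraries and 140.2, 143, 132 and 141 CPM in the Eo+ libraries (-1.11 ± 0.06, adjusted p = 4.6e-09). The processing factors Rrp9, Heatr1 and Ddx21 fell by similar amounts (-1.03 ± 0.13, -0.96 ± 0.08 and -0.86 ± 0.07), and the gene of the abundant nucleolar protein nucleolin, Ncl, fell from 368 to 287 FPKM (-0.39 ± 0.08). Against Eo−, 9 members were lower and 0 higher (median -0.12), and with the replicate number as a block 17 were lower and 1 higher. Of 77 cytosolic ribosomal proteins, by comparison, 62 were not called, 3 were higher and 12 lower, with a median of -0.04. Translation initiation factors were 28 lower and 8 higher of 51 (median -0.25), and aminoacyl-tRNA synthetases 15 lower and 4 higher of 31 (median -0.23).

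Target genes of Atf4, the factor that answers amino acid shortage and other stress, fell with them. Of 27, 23 were lower and 2 higher (median -0.84). Nupr1, a stress-induced chromatin protein gene, measured 15.5, 17.6, 10.3 and 20.5 CPM in the ESC libraries and 0.317, 0.228, 0.225 and 0.231 CPM in the Eo+ libraries (-5.95 ± 0.31, adjusted p = 2e-09). The pseudokinase gene Trib3 and the mTORC1 inhibitor Sesn2 fell (-1.83 ± 0.30 and -1.71 ± 0.13). Amino acid enzymes were part of it, with asparagine synthetase, Asns, at 324 ± 76.7 CPM in ESCs and 147 ± 14.9 CPM in Eo+ (-1.10 ± 0.14) and the serine pathway gene Psat1 at 465 ± 115 and 235 ± 24.2 CPM (-0.95 ± 0.14). One listed target, the lipoprotein receptor gene Vldlr, rose strongly, from 5.45 ± 1.8 to 43.9 ± 17.9 CPM (3.01 ± 0.32). Against Eo−, 4 members were higher and 5 lower, with a median of 0.01.

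Target genes of p53 fell as well, 21 of 31 being lower and 5 higher (median -0.65). Mdm2, the ubiquitin ligase that opposes p53, measured 196, 159.7, 169 and 143 CPM in the ESC libraries and 70.5, 59.9, 64.3 and 60.7 CPM in the Eo+ libraries (-1.38 ± 0.10, adjusted p = 4.9e-08), with the ESC libraries again in the order of the feeder markers, whose part was not tested. The cell cycle inhibitor Cdkn1a fell from 100.3 ± 16.8 to 36.6 ± 8.18 CPM (-1.46 ± 0.18), the kinase gene Plk3 from 52.1 ± 7.01 to 6.05 ± 0.399 CPM (-3.10 ± 0.13) and the TNF receptor family gene Eda2r from 54.9 ± 8.93 to 12.2 ± 3.35 CPM (-2.18 ± 0.19). Pmaip1, which encodes the apoptosis inducer Noxa, went the other way, from 35.8, 27.9, 37.7 and 25 CPM in the ESC libraries to 101, 188, 82.2 and 149 CPM in the Eo+ libraries (1.98 ± 0.23, adjusted p = 4.3e-06). The immediate-early genes given above were also higher in the ESC libraries, and their part in the Atf4 and p53 target values was not tested. Trp53 itself fell by 0.34 ± 0.09 on the log2 scale with overlapping libraries (adjusted p = 0.0037).

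**Figure D4:**
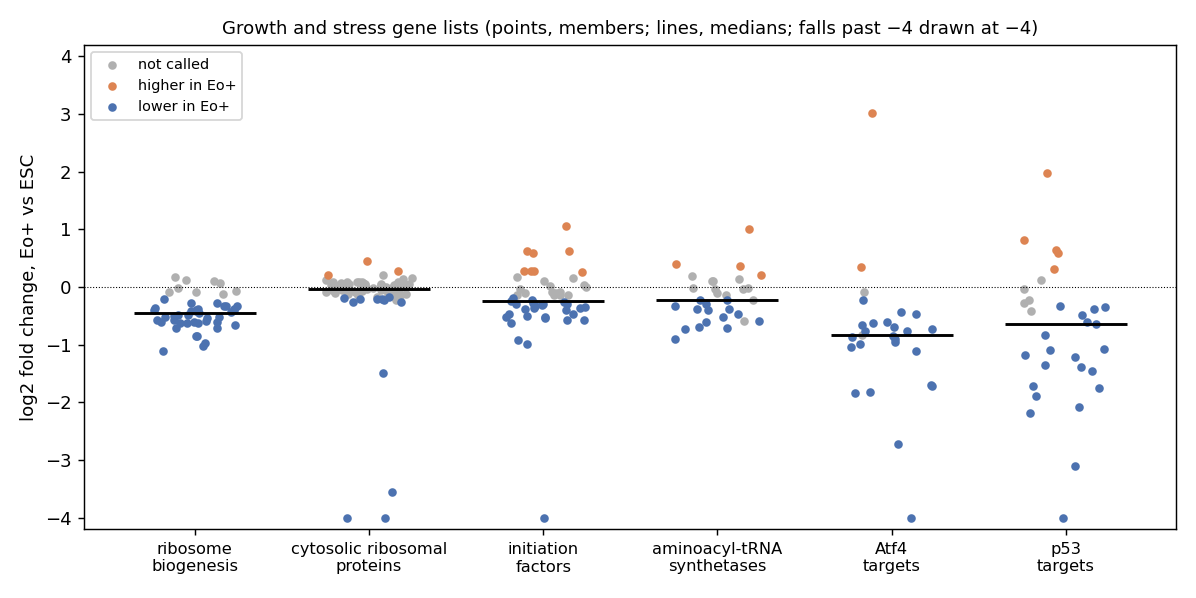
Log2 fold change of Eo+ over ESC (vertical axis) for each tested member (points) of 6 growth and stress lists, with the list median as a line. Values past −4 are drawn at −4. Ribosome biogenesis members form a band below 0, cytosolic ribosomal proteins sit at 0 apart from a few far falls, and Atf4 and p53 targets spread downwards.

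Of cell division genes, 25 of 46 DNA replication genes were lower and 8 higher (median -0.21), and 18 of 39 mitosis genes lower and 8 higher (median -0.13). Without Eo+ library 2, 5 mitosis genes were higher. Between the day 3 groups the lists parted, since Eo+ was lower than Eo− in 20 replication genes and higher in 0 (26 and 1 with the replicate number as a block), but higher than Eo− in 15 mitosis genes and lower in 0 (18 and 3 with the replicate number as a block). The E2F letters TTGGCGC or TTCCCGC, on either strand, were in 20 of 38 replication gene promoters with an entry (52.6%), against 6.93% of all promoters. They were in 7 of 7 promoters of the higher members and in 6 of 18 promoters of the lower members (33.3%), 2 groups too small to be read further.

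Germline-type paralogues of housekeeping genes fell, the ribosomal protein genes Rpl39l and Rpl10l among them. For 6 pairs, chosen after their values were seen, a copy best known from testis or oocytes was set beside its general counterpart. Rpl39l (ENSMUSG00000039209, chr16:10170226-10174911, plus strand) measured 30.5, 32.2, 30.9 and 40.01 CPM in the ESC libraries, a mean of 7.11 CPM in Eo− and 0.11, 0.21, 0.34 and 0.286 CPM in the Eo+ libraries (-7.26 ± 0.29, adjusted p = 2.9e-10), whereas Rpl39 was not called (0.21 ± 0.13). Rpl39 measured 470 CPM in ESCs. Per length, Rpl39l made up 10.9% of the FPKM of the pair in ESCs, 2.30% in Eo− and 0.0748% in Eo+. Rpl10l, a retrocopy that replaces Rpl10 when the X chromosome is silenced in meiosis, fell from 57 ± 9.24 to 0.412 ± 0.125 CPM (-7.16 ± 0.26), and Rpl10 was not called (0.01 ± 0.06). The shares of these and the following pairs rest on uniquely aligned reads, so near-identical stretches of a copy are missing from its count. They also depend on the summed exon length of each assembled locus, which differs between the copies, and so are not shares of the reads.

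The proteasome subunit gene Psma8, the α-tubulin gene Tuba3a and the meiotic kinase gene Aurkc fell, with log2 fold changes of -5.32 ± 0.25, -5.26 ± 0.34 and -4.06 ± 0.42. Their counterparts Psma7, Tuba1a and Aurkb had log2 fold changes of -0.13 ± 0.07, 0.49 ± 0.13 and 0.36 ± 0.08, with Psma7 not called and the others higher. In ESCs Aurkc measured 8.39 CPM and Aurkb 97.0 CPM. Divided by the summed exon length of each assembled locus, Aurkc made up 28.4% of the FPKM of the pair in ESCs and 1.65% in Eo+. Slc25a31, the germline ADP/ATP carrier, fell from 2.46 ± 0.549 to 0.192 ± 0.028 CPM (-3.65 ± 0.23) and the general carrier Slc25a5 fell by 0.54 ± 0.06, in a list of solute carriers of which 112 of 253 were higher and 93 lower.

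**Figure D5:**
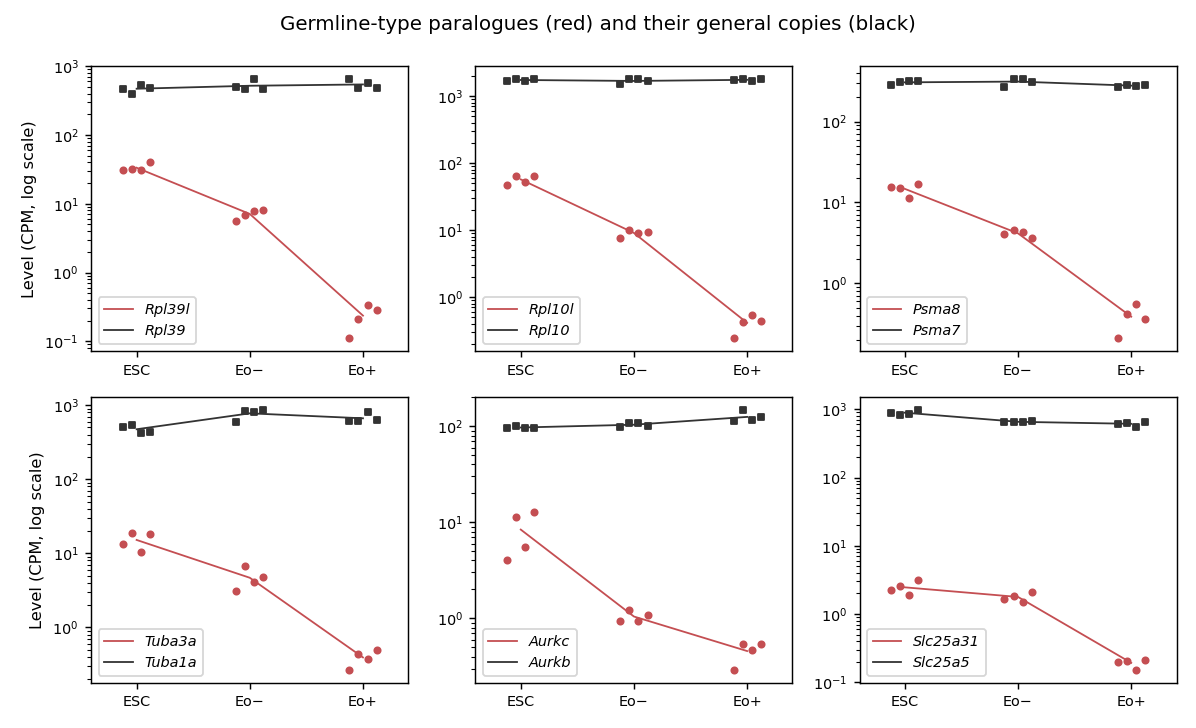
Level in CPM (vertical axis, log scale) in each of the 4 ESC, 4 Eo− and 4 Eo+ libraries (points) with lines through the group means, for 6 germline-type paralogues (red) and their general copies (black). The red copies fall through Eo− to Eo+ while the black copies change far less.

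Genes matched by MAGE, Tex, Tudor (Tdrd), Sycp and other germline names moved in both directions, and the matches include broadly expressed genes such as Tex2, Tex10 and Tex261. Of 31 members tested, 18 were lower and 9 higher (median -1.31, 25 of 61 under the filter). The piRNA pathway gene Tdrd12 measured 150.2, 133, 124 and 145 CPM in the ESC libraries and 2.33, 3.06, 5.07 and 3.82 CPM in the Eo+ libraries (-5.33 ± 0.18, adjusted p = 8.8e-11). Hormad1, a gene of the meiotic chromosome axis that is not in this list and had 1 of the 15 largest falls of any abundant named locus, measured 34.3, 28.4, 22.2 and 42.6 and 0.068, 0.124, 0.171 and 0.14 CPM (-8.02 ± 0.41, adjusted p = 2e-09). Tex14 and Sycp1, needed for germ cell bridges and for chromosome synapsis, fell (-5.67 ± 0.40 and -4.79 ± 0.27). Eo− lay between the other groups, with 27.4 ± 3.23 CPM of Tdrd12 and 3.95 ± 0.344 CPM of Hormad1. Mael, a piRNA factor gene, was an exception in that it averaged 6.33 ± 1.73 CPM in ESCs, stood no lower in Eo− at a mean of 9.54 ± 1.99 CPM, and measured 0.594 ± 0.235 CPM in Eo+ (-3.51 ± 0.34 against ESC and -4.11 ± 0.33 against Eo−). The higher members with a promoter entry were Maged1, Maged2, Mageh1, Magel2, Tdrd3, Tdrd7, Tex9, Tex26 and Tex261, and the lower ones included Magea4 and Mageb16. Maged2, of a MAGE branch that is expressed in many tissues, rose from 30.2 ± 3.88 to 90.8 ± 7.29 CPM (1.59 ± 0.10).

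The E-box CACGTG is bound by Mga and Max, which belong to a Polycomb complex, with E2f6, that keeps many germline genes silent in somatic cells. Mga itself fell from 126 ± 10.7 to 82.8 ± 3.21 CPM (-0.60 ± 0.08, adjusted p = 2.3e-05) and E2f6 rose from 35.8 ± 4.69 to 72.4 ± 10.3 CPM (1.01 ± 0.11, adjusted p = 2.5e-06). The letters of the E-box, which read alike on both strands, were in 8 of 17 promoters of the lower members (47.1%: Ddx4, Mael, Stag3, Sycp1, Sycp3, Tdrd1, Tex10 and Tex12), in 1 of 3 promoters of the not called members (Tdrd9), in 0 of 9 promoters of the higher members and in 7.24% of all 27025 promoters. Of the 7 germline-type genes described above that lie outside this list, 6 had a promoter entry and 2 held the letters, Hormad1 and Slc25a31, whereas Rpl39l, Rpl10l, Tuba3a and Aurkc did not. The promoters of Hormad1, Mael and Slc25a31 are shown as examples, from 250 bases before to 50 bases after the start of transcription (GRCm38.p6, RefSeq), with the E-box in capitals. They lie at chr3:95559427-95559726 on the plus strand, at chr1:166238695-166238994 on the minus strand and at chr3:40708621-40708920 on the plus strand, and were chosen after the values were seen.
Hormad1: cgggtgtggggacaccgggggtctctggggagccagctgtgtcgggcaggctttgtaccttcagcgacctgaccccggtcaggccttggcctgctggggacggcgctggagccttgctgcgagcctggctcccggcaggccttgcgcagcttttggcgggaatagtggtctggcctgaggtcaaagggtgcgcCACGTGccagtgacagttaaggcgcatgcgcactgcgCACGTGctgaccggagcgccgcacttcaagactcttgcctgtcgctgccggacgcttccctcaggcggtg
Mael: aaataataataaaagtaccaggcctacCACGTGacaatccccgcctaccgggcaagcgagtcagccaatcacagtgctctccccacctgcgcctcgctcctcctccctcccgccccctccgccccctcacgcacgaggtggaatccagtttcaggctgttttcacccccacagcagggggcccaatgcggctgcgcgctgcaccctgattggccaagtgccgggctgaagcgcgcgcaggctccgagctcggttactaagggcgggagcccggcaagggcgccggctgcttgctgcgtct
Slc25a31: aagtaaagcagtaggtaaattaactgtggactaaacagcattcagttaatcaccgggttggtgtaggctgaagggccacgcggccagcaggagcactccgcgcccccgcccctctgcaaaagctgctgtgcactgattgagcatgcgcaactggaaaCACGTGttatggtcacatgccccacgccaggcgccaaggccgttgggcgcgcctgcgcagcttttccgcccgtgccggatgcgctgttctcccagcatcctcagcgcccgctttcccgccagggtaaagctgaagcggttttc
Hormad1 holds the letters at positions −57 and −20, Mael at −223 and Slc25a31 at −93. These matches describe the sequence and were not tested as binding sites.

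In chromatin, subunits of the SWI/SNF (BAF) remodelling complex moved in both directions. Of 26 tested, 16 were higher and 6 lower (median 0.32). Smarca2, the ATPase alternative to Smarca4, measured 2.91, 2.93, 3.01 and 2.68 CPM in the ESC libraries and 24.3, 17.7, 17.2 and 18 CPM in the Eo+ libraries (2.74 ± 0.16, adjusted p = 5.1e-09), yet Smarca4 remained the main ATPase gene per length with 37.7 FPKM against 2.28 FPKM in Eo+. Smarca4 had a log2 fold change of 0.22 ± 0.08 whose call was lost with DESeq2, with its size factors in limma, with at least 1 CPM in 4 libraries, in a fit of ESC and Eo+ libraries only, and without ESC library 1 or 5 or Eo+ library 2 or 6. Among the interchangeable Dpf subunits, Dpf3, known from heart and muscle, rose from 0.532 ± 0.0229 to 7.6 ± 2.01 CPM (3.80 ± 0.28) and Dpf1 fell from 16 ± 1.35 to 6.49 ± 0.496 CPM (-1.30 ± 0.10). Smarcc2, a scaffold subunit that is low in ESCs, rose by 1.10 ± 0.09, and the actin-like subunit Actl6a fell by 0.58 ± 0.07. Of histone genes, the macroH2A gene H2afy2 rose from 32.3 ± 5.17 to 109 ± 11.8 CPM (1.76 ± 0.11) and stood at 28.6 ± 1.77 CPM in Eo−. The histone demethylase Kdm4c and Jarid2, a partner of the Polycomb complex, fell (-1.86 ± 0.12 and -1.42 ± 0.10). Zinc finger genes named Zfp leaned upwards, with 49.8% of 269 higher and 22.7% lower (median 0.25), while their corepressor gene Trim28 fell as described above.

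Matrix genes and others that fibroblasts express need the feeder values beside them. Of 36 collagens tested, 15 were higher and 18 lower, of 19 annexins and S100 proteins 4 and 14, and of 16 serpins 4 and 10. The fibrillar collagen gene Col1a1 measured 96.4, 54.7, 79.1 and 32.6 CPM in ESC libraries 1, 2, 5 and 6 and 5.05, 2.35, 1.91 and 3.94 CPM in the Eo+ libraries (-4.32 ± 0.43, adjusted p = 8e-07). The calcium-binding protein gene S100a6 measured 96, 83.2, 132 and 53.4 and 6.91, 3.11, 8.01 and 4.51 CPM (-4.05 ± 0.34). In both genes, libraries 1 and 5 were the highest and library 6 the lowest of the ESCs. The feeder markers, of which 10 of 11 tested were lower in Eo+, summed to 356, 159, 261 and 138 CPM in the same libraries. Col1a1 is itself a feeder marker, so the sum is no separate measure for that gene. The part of feeder cells in these falls was not tested. Of the members that rose, the basement membrane collagen genes Col4a1 and Col4a2 went from 32.4 ± 8.4 to 168 ± 49.6 CPM (2.36 ± 0.25) and from 19.8 ± 6.02 to 76.6 ± 28 CPM (1.92 ± 0.31). Library 1 was the highest in Eo+, as for the visceral endoderm, feeder, trophoblast and blood and endothelial precursor markers, whose part was not tested. The collagen chaperone gene Serpinh1 rose from 96.1 ± 17.3 to 377 ± 60.04 CPM (1.97 ± 0.15) and S100a10 from 102 ± 44.8 to 244 ± 22.3 CPM (1.34 ± 0.22).

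Hox genes, which pattern the body axis, were 15 lower and 4 higher of 25 tested, and 2 were higher without ESC library 2 or Eo+ library 1. Most of the lower members were at low levels in ESCs, such as Hoxc13 at 3.07, 2.52, 1.85 and 1.82 CPM in the ESC libraries and 0.0366, 0.0282, 0.0102 and 0.00646 CPM in the Eo+ libraries (-7.02 ± 0.51). In 11 of the 15 lower members (73.3%), though not in Hoxc13, ESC libraries 1 and 5 were the highest of their group, as for the feeder markers, against 15.5% of all named loci called lower. The part of the feeder markers, whose ESC sums are given above, was not tested. The early anterior genes rose, Hoxb1 to 13.5, 23.4, 5.5 and 29.3 CPM in the Eo+ libraries from 3.28 ± 0.777 CPM (2.21 ± 0.58, adjusted p = 0.004) and Hoxb2 to 19.3, 9.6, 3.51 and 17.7 CPM from 1.68 ± 0.651 CPM (2.70 ± 0.63, adjusted p = 0.0017). Library 5 was the lowest Eo+ library in both.

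Genes of motile cilia, which the node of the embryo uses to set left and right, rose in part. The ciliogenesis factor gene Foxj1 measured 2.18, 2.43, 2.62 and 1.77 CPM in the ESC libraries, a mean of 16 CPM in Eo− and 63.6, 62.5, 88.8 and 61.6 CPM in the Eo+ libraries (4.93 ± 0.24, adjusted p = 1.2e-09). Of 12 dyneins and axonemal genes, 7 were higher and 4 lower. Dnah11, a left-right dynein gene, rose from 1.15 ± 0.306 to 7.77 ± 2.28 CPM (2.75 ± 0.25), whereas Dnah8, best known from sperm, fell from 67 ± 14 to 5.62 ± 1.31 CPM (-3.58 ± 0.23). Kinesins were 17 higher and 6 lower of 34, among them the ciliary gene Kif27 (3.30 ± 0.23), whose locus also held a small or clone-named gene model.

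Single genes of further families changed strongly. The glycerol channel gene Aqp3 measured 86.3, 67.7, 27.7 and 15.1 CPM in the ESC libraries and 0.403, 0.181, 0.247 and 0.486 CPM in the Eo+ libraries (-7.05 ± 0.89, adjusted p = 7.7e-06), and 5 of 7 aquaporins tested were lower and 0 higher (1 without Eo+ library 2 or 6). Of 36 autophagy and lysosome genes, 15 were higher and 13 lower. The lysosomal master regulator Tfeb fell from 46.6 ± 11.2 to 2.85 ± 1.34 CPM (-4.10 ± 0.28), and the initiating kinase Ulk1 fell while its paralogue Ulk2 rose (-2.09 ± 0.13 and 2.17 ± 0.14). Per length, Ulk1 stood at 26 FPKM and Ulk2 at 0.816 FPKM in ESCs, and at 6.2 and 3.79 FPKM in Eo+. The splicing regulator Rbm24, known from heart muscle, rose from 0.811 ± 0.158 to 23.3 ± 3.27 CPM (4.85 ± 0.24) in a list of which 19 of 34 were higher and 8 lower. The small heat shock protein gene Hspb1 fell from 239 ± 20.01 to 24.9 ± 4.73 CPM (-3.28 ± 0.13), with 10 of 20 cytosolic heat shock genes lower and 4 higher (2 higher without ESC library 1 or 2). The lysosomal protease genes Ctsc and Ctsh rose by 2.78 ± 0.10 and 3.07 ± 0.54, Ctsh unevenly, at 38.2, 7.47, 29.2 and 13.9 CPM in Eo+ libraries 1, 2, 5 and 6, an order shared with the visceral endoderm markers. Their part in the Ctsh values was not tested.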

How the data were processed

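The authors aligned the paired, strand-specific reads to mm10 with STAR (2.0.4 in the submitters' processing notes), assembled transcripts with Cufflinks 2.2.1, merged them with Ensembl's and tallied reads for each merged locus by HTSeq 0.6.1. The deposited raw counts of 80012 loci were used as they stand; 5 tally lines were set aside, with 22.4% to 26.2% of a library's fragments not uniquely aligned, and 357 loci without a position took 2.01% to 2.93% of the counts. A deposited normalized table, the authors' signal per locus, was not used for testing, and 0 columns belonged to no sample. Loci holding several annotated genes cannot be split, and a list member joined to a neighbour was left out of its list. Those of Pdgfra, Kif27, Ncl, Rpl10 and Smarca4 hold a further small or clone-named model.

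Loci with a mean above 0.1 FPKM in a group were fitted with limma 3.58.1 (voom, TMM from edgeR 4.0.16, R 4.3.3) over all 12 libraries, 1 mean per group, two-sided, with Benjamini-Hochberg adjustment over 20212 loci. CPM are TMM-scaled, FPKM use the summed exon length, and ± after a log2 fold change is its SE. Each library's limit of 3 counts is 0.00364 to 0.00484 CPM. No 2 libraries of a group agreed within sampling noise. Alternatives were edgeR, DESeq2 1.42.0, other scaling and filters, a replicate block and leaving out each library.

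The pairing of numbers was checked: deviations of same-numbered Eo− and Eo+ libraries correlated at 0.276 to 0.596 and those of ESC and Eo+ libraries at −0.126 to 0.156, so the numbers appear to pair the day 3 groups. The fold changes, SE and adjusted p printed for Eo+ against Eo− nonetheless come from the fit without a block and are not paired. In that comparison 7426 named loci were called without the block and 8376 with it. Other counts from the block are given where stated. The methods name 4 differentiation sets without tying the numbers to them. Promoters are RefSeq windows of 300 bases, 1 per symbol.

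The members and lists were chosen with earlier results of these data known. Per list, up to 4 largest rises and falls among called single-gene loci with at least 1 CPM and no overlap, the 2 most abundant members and members of opposite direction were named, besides the 15 largest rises, falls, gains and losses overall (at least 20 CPM for rises and falls). Asns, Cdkn1a, Gsta4, Kif27, Mael, Mdm2, Pdgfra, Prickle1, Psat1, Slc25a31, Smarca4, Sycp1, Vangl2 and Wnt11 were added after their values were seen. Some list members are not analysed here.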

Additional observations from a re-analysis of the deposited data

Results flagged for a closer look

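In 18 of the 300 groups of 4 libraries formed by the genes named in the report, the highest or lowest library lay far from the other 3 by Dixon's test at the 95% level. Chance flags about 1 in 20 groups, so this number by itself is close to what chance gives. Eo+ library 5 stood apart most often. It was high in Cdh1 with 487 CPM against 247 to 280 CPM in the others, in Foxj1 with 88.8 against 61.6 to 63.5 CPM, in Mkrn1 with 146 against 81.0 to 84.0 CPM, in Tdh with 10.6 against 3.82 to 4.90 CPM and in Tuba1a with 801 against 603 to 635 CPM, and it was low in Hmga2 with 373 against 573 to 607 CPM. Eo+ library 1 was low in Ajuba with 61.8 against 85.2 to 88.2 CPM and in Mael with 0.246 against 0.672 to 0.756 CPM, and high in Asns with 169 against 137 to 142 CPM, in Nupr1 with 0.317 against 0.225 to 0.231 CPM and in Smarca2 with 24.3 against 17.2 to 18.02 CPM.

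Among the ESC libraries, library 1 was high in Hmgcs1 with 255 against 219 CPM in each of the others and in Slc16a1 with 238 against 208 to 211 CPM, and low in Psma7 with 281 against 311 to 316 CPM. ESC library 5 was high in Hes1 with 69.2 against 45.2 to 47.9 CPM. ESC library 6 was high in Elovl2 with 7.83 against 4.41 to 4.78 CPM and low in Maged2 with 24.4 against 31.6 to 32.9 CPM and in Smad6 with 4.39 against 4.94 to 5.00 CPM. Of these genes Cdh1 alone changed its call when the library was left out, as given in the report.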

How the results depend on the processing

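Of 150 genes named with values, 146 kept their side of the threshold under each of the 22 alternatives in which they were fitted. Of these, 143 also kept their direction, since Fdft1, Insig1 and Rpl10, not called in any such fit, changed sign. Pdgfra, Kif27, Ncl, Rpl10 and Smarca4, whose loci hold a further gene model, were not in the fit of loci with 1 reference gene. The genes that changed sides were Cdh1, Rpl39, Psma7 and Smarca4 with log2 fold changes of -0.22, 0.21, -0.13 and 0.22, and no direction is drawn from them. The number of named loci called between Eo+ and ESC, 11514 as reported, was 11526 with edgeR, 11728 with DESeq2, 9622 with at least 1 CPM in 4 libraries and 12061 with the replicate block, and leaving out 1 library at a time gave 10969 to 11507 (5960 to 6164 higher, 5007 to 5358 lower). Called loci that changed at least 2-fold were 5526 as reported, 5459 to 5572 without 1 library, and 8348 with no FPKM filter and a count sum of at least 10, where more loci were tested. For Eo+ against Eo−, 7426 loci were called, 6446 to 7726 without 1 library and 8376 with the replicate block. Deviations of ESC and Eo+ libraries of 1 number correlated at −0.126 to 0.156, with ESC library 1 alone closest to its own number, and the block there changed the calls of Psma7 and Rpl39 among the genes named. In Eo+ against Eo−, beyond the list counts given in the report, the block changed no call of a named gene that the report states. List counts given in the report that moved by over 1.5 times, beyond those named there, were as follows. With at least 1 CPM in 4 libraries, lower members were 5 (15 as reported) among Hox genes, 2 (5) among aquaporins, 2 (4) among dyneins, 10 (6) among kinesins and 19 (12, and 7 with no FPKM filter) among cytosolic ribosomal proteins. Higher members with that filter were 2 (4) among serpins, 2 (4) among heat shock genes, 1 (3) among cytosolic ribosomal proteins and 5 (8) among mitosis genes, the last also with DESeq2, its size factors, or ESC and Eo+ libraries only, which gave 19 lower cytosolic ribosomal proteins too. One aquaporin was higher with edgeR, DESeq2, the block or no FPKM filter. Complex I had 8 (4) higher subunits with library totals and 7 with the block. The median log2 fold change of all loci tested was −0.01 with TMM, 0.03 with library totals and −0.03 with DESeq2 size factors. Depth limits little here, since 3 counts correspond to at most 0.00484 CPM, but intervals of counts would cover counting error only.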
